A study of Mus musculus with 24 samples.

Results

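The genes described here are the RNase H and nucleic acid degradation enzymes, 8 genes chosen by name from the 55291 gene rows counted in the RNA libraries: Rnaseh1, Rnaseh2a, Rnaseh2b, Rnaseh2c, Xrn1, Xrn2, Samhd1 and Trex1. They were followed through all 12 RNA libraries of a study that depleted transcripts of the endogenous retrovirus MERVL from mouse embryos. Zygotes came from superovulated females mated with males, both 8-week-old B6D2F1 (BDF1) mice, although the sample labels give the strain as BDF2. Antisense oligonucleotides (ASOs) at 20 µM were injected into the male pronucleus, and the embryos were then cultured in KSOM medium. MERVL-KD embryos received a mixture of 3 ASOs against MERVL and control embryos a scrambled ASO, so both arms carried an injected oligonucleotide and no library of uninjected embryos was analysed here. Each library pooled 30 embryos freed of their zona pellucida, with 2 biological replicates of each arm at the 2-cell stage (1.5 dpc, days post-coitum), the 4-cell stage and the 8-cell stage. Both later stages carry the label 2.5 dpc, and the cleavage stage was judged under the microscope.

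RNase H enzymes cut the RNA strand of an RNA:DNA hybrid. They are the enzymes that an ASO with a DNA core recruits to its target, and the cut pieces are then digested by exonucleases, of which Xrn2 acts in the nucleus and Xrn1 in the cytoplasm. RNase H1 works as a single protein, whereas RNase H2 is built from a catalytic subunit (Rnaseh2a) and a pair of accessory subunits (Rnaseh2b and Rnaseh2c) and also removes ribonucleotides left in DNA. Samhd1 breaks down deoxynucleotides and Trex1 digests DNA in the cytoplasm, and defects in RNase H2, Samhd1 or Trex1 lead to the inflammatory disorder Aicardi-Goutieres syndrome. In early mouse embryos, stored maternal RNA is cleared while the embryo's own genes switch on around the 2-cell stage.

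The injected ASOs are shown because they pair with RNA into the hybrids whose RNA strand RNase H cuts, which links these enzymes to the experiment. Each is 20 nucleotides long and phosphorothioate throughout, written 5′ to 3′ as listed by the study. Capitals mark positions 6 to 14, the DNA core that can pair with RNA into an RNase H substrate, and the lower-case wings carry 2′-methoxyethyl sugars.
MERVL-ASO1: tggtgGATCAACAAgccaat
MERVL-ASO2: catttGTCTGTTTAccacga
MERVL-ASO3: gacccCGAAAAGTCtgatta
Scramble-ASO: agcgcGGGTATTGAaccagg
None of the 4 ASOs had a complementary site with 4 mismatches or fewer in the span of any of the 8 genes in GRCm38. The best site in a gene had from 5 to 8 mismatches for MERVL-ASO1, from 5 to 9 for MERVL-ASO2, from 6 to 8 for MERVL-ASO3 and from 5 to 8 for Scramble-ASO. Of the 96 genes of related pathways described below, Aqr, an RNA:DNA hybrid helicase, held sites for all 3 MERVL ASOs on the minus strand in an intron, and Dis3l, Dis3l2, Top1 and Xrcc5 held sites with 4 mismatches. That of Dis3l was for Scramble-ASO, in an exon. The others were in introns, for MERVL-ASO1 and MERVL-ASO3 in Dis3l2, MERVL-ASO2 in Top1 and MERVL-ASO1 in Xrcc5. The Aqr sites lie at chr2:114186762-114186781 with 0 mismatches, at chr2:114185156-114185175 with 1 mismatch and at chr2:114184904-114184923 with 0 mismatches. Between MERVL-KD and control, Aqr had log2 fold changes of -0.15 in 2-cell, -0.20 in 4-cell and 0.03 in 8-cell embryos, none of which passed the test.

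The 8 genes lie on GRCm38 as the count files annotate them. Rnaseh1 (chr12:28649602-28659589, plus strand) has 2586 exon bases, Rnaseh2a (chr8:84956610-84969767, minus strand) 3509, Rnaseh2b (chr14:62292589-62372992, plus strand) 6243 and Rnaseh2c (chr19:5601873-5607019, plus strand) 1715. Xrn1 (chr9:95954760-96057803, plus strand) has 18585 exon bases, Xrn2 (chr2:147012996-147078000, plus strand) 3981, Samhd1 (chr2:157097533-157135265, minus strand) 9150 and Trex1 (chr9:109057933-109059734, minus strand) 1147.

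Trex1 had 0 counts in all 12 libraries, and this 0 says nothing of its expression. All 1147 exon bases of Trex1 lie within exons of Atrip on the same strand, so every read of Trex1 also falls on Atrip. Across the files, 727 of 727 genes covered in this way had 0 counts in every library, 23 of 23 protein-coding ones among them, against 18.0% of genes with no exon overlap. Genes covered only by exons on the opposite strand were also at 0, 436 of 436, so reads on exons of more than 1 gene were not counted and the strand of a read was not used. Atrip itself, a DNA damage signalling protein, held from 207 to 1159 counts.

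The same rule removed part of other members. Of the exon bases of Rnaseh2c, 24.8% overlap Kat5 on the opposite strand and could not be counted. In Rnaseh2a 9.66% overlap Gm49661 on the same strand and 5.04% overlap Prdx2 on the opposite strand. Prdx2 stood at 113.1 to 154.0 CPM in 2-cell and at 11.2 to 15.8 CPM in later libraries, and its part in the values of Rnaseh2a was not tested. The uncounted shares were 4.24% in Xrn1 and 1.06% in Rnaseh2b, while Rnaseh1, Xrn2 and Samhd1 share no exon base. Loss of a fixed part of a gene lowers its level in every library alike only if reads spread along the gene in the same way in each, which was not tested. Reads of an antisense transcript within the remaining exons cannot be told apart from those of the gene.

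Library totals ranged from 28167085 to 41482526 counts. MERVL-int, the internal part of the targeted element, had log2 fold changes of -5.72, -5.53 and -5.40 in MERVL-KD 2-cell, 4-cell and 8-cell embryos (edgeR's quasi-likelihood test, adjusted p = 1.28e-16, 1.04e-04 and 2.42e-12). All 8 embryo markers (Pou5f1, Obox6, Zp3, Zscan4c, Zfp352, Tfap2c, Dppa3 and Gdf9) were counted in every library, with a summed level of 960 to 2439 CPM (counts scaled by TMM to a common library depth and composition). Their sum was lower in both MERVL-KD libraries than in both control libraries at each stage. The summed level of 10 cumulus cell markers was 17.0 to 26.3 CPM, most of it Amhr2 with 479 to 898 counts, while Ptx3 was at 0 in 11 libraries and Fshr in 8. The 4 sperm markers summed to 0.170 to 1.40 CPM.

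Rnaseh1 was present at moderate level throughout. The control 2-cell libraries held 455 and 499 counts and the MERVL-KD ones 449 and 365, 788 and 838 against 834 and 633 at the 4-cell stage, and 791 and 766 against 929 and 1268 at the 8-cell stage. As CPM these were 14.5 and 13.7 against 10.7 and 10.3, then 22.4 and 29.1 against 22.9 and 18.5, then 28.7 and 25.7 against 26.8 and 32.5. Both MERVL-KD libraries lay below both controls at the 2-cell stage, and the arms overlapped at the later stages.

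The catalytic subunit of RNase H2, Rnaseh2a, was already present at the 2-cell stage. Its levels were 4.85 and 5.62 CPM in control and 7.82 and 5.77 CPM in MERVL-KD 2-cell libraries, from counts of 152 and 204 against 329 and 204. They were 8.00 and 9.62 against 8.43 and 9.32 CPM at the 4-cell stage, and 12.1 and 10.7 against 9.41 and 9.93 CPM at the 8-cell stage. The MERVL-KD libraries were the higher ones at the 2-cell stage and the lower ones at the 8-cell stage, without overlap at either.

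The accessory subunits began near the bottom of the range. Rnaseh2b held 58 and 40 counts in control and 54 and 32 in MERVL-KD 2-cell libraries, then 598 and 386 against 503 and 424 at the 4-cell stage, and 585 and 638 against 514 and 653 at the 8-cell stage. In CPM it went from 1.85 and 1.10 against 1.28 and 0.905, through 17.0 and 13.4 against 13.8 and 12.4, to 21.2 and 21.4 against 14.8 and 16.7. The arms stood apart only at the 8-cell stage, where both MERVL-KD libraries were lower.

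Rnaseh2c followed the same course. It held 54 and 57 counts in control and 46 and 38 in MERVL-KD 2-cell libraries, 569 and 373 against 596 and 494 at the 4-cell stage, and 728 and 715 against 732 and 678 at the 8-cell stage. The levels were 1.72 and 1.57 against 1.09 and 1.07 CPM, then 16.1 and 13.0 against 16.4 and 14.4 CPM, then 26.4 and 24.0 against 21.1 and 17.4 CPM. MERVL-KD libraries were below the controls at the 2-cell and 8-cell stages, and the arms overlapped at the 4-cell stage.

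Xrn1, the cytoplasmic exonuclease for decapped mRNA, varied least. Its levels were 46.3 and 40.8 CPM in control and 44.4 and 37.5 CPM in MERVL-KD 2-cell libraries, 67.4 and 57.6 against 55.1 and 55.2 CPM at the 4-cell stage, and 64.6 and 57.0 against 63.6 and 64.5 CPM at the 8-cell stage. Xrn2, the nuclear exonuclease that also ends transcription by RNA polymerase, was at 40.0 and 43.1 against 39.1 and 43.0 CPM, then 144.6 and 139.8 against 123.1 and 138.7 CPM, then 169.0 and 158.4 against 148.9 and 148.4 CPM. The Xrn2 arms overlapped at the 2-cell stage, and MERVL-KD was the lower arm at both later stages. The Xrn1 arms stood apart only at the 4-cell stage, with MERVL-KD lower.

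Samhd1 ran the other way, with its highest levels at the 2-cell stage. These were 101.3 and 102.9 CPM in control and 98.0 and 98.0 CPM in MERVL-KD libraries, from 3178 and 3740 against 4125 and 3466 counts. At the 4-cell stage the levels were 36.5 and 49.1 against 35.3 and 43.0 CPM, and at the 8-cell stage 35.6 and 37.7 against 38.8 and 35.1 CPM. The arms were apart by a narrow margin at the 2-cell stage and overlapped afterwards. CPM was scaled over all 12 libraries, whereas the fold changes below were scaled within the 4 libraries of a stage, so a small difference such as this one can have the other sign there.

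**Figure D1:**
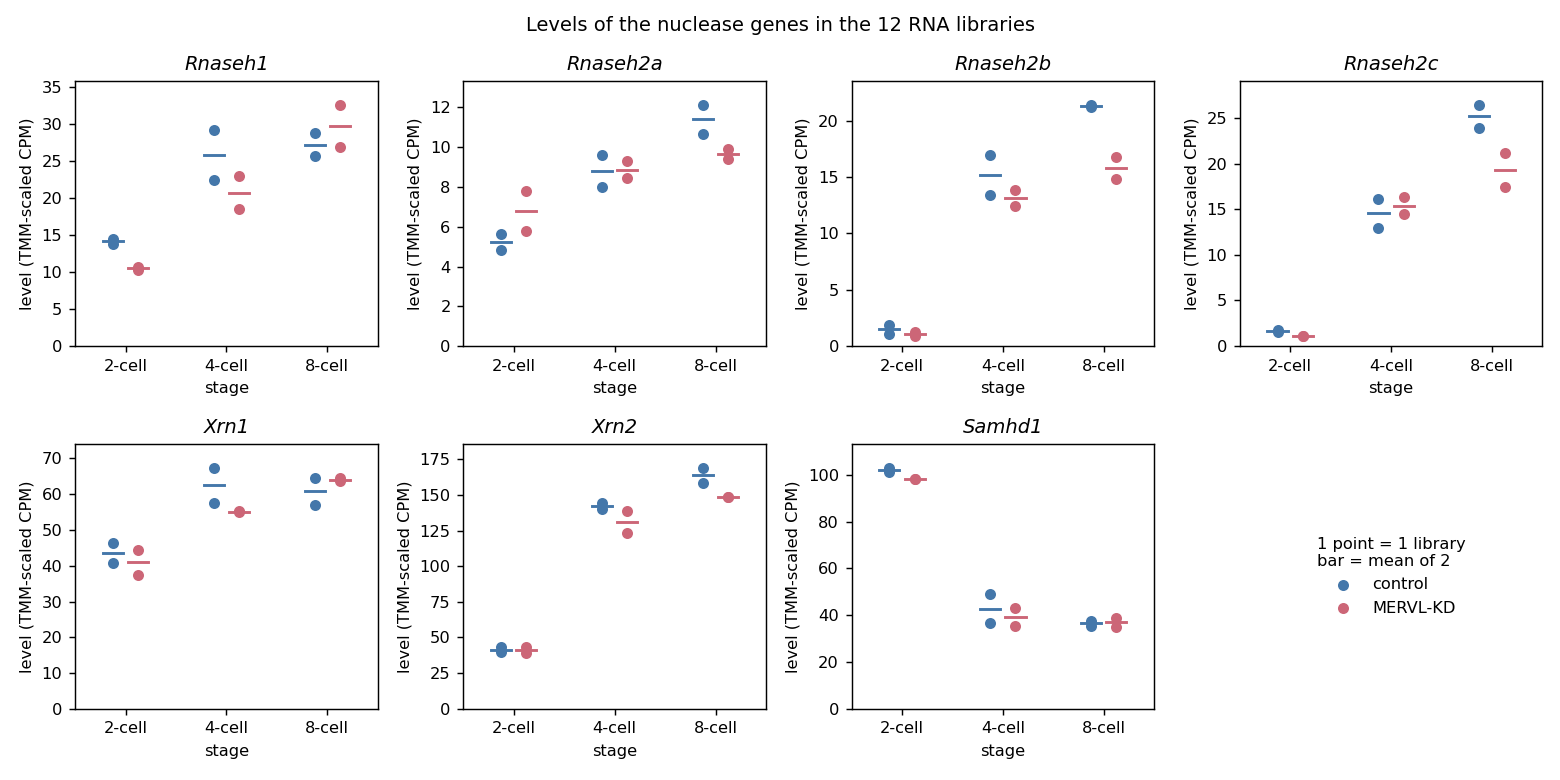
Level of each counted gene in CPM (vertical axis, linear from 0) by stage (horizontal axis), with 1 point per library and bars at the mean of 2 libraries, control in blue and MERVL-KD in red. Rnaseh2b and Rnaseh2c start near 1 CPM and Samhd1 falls from group means of 102 and 98.0 CPM at the 2-cell stage to between 36.6 and 42.8 CPM later.

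Levels of different genes were set side by side per kilobase of exon (RPKM). The length is that of all annotated exons of a gene merged, which need not be that of the transcripts present, and the order depends on it. In control 2-cell libraries Samhd1 (11.2 RPKM) and Xrn2 (10.4) led, followed by Rnaseh1 (5.46), Xrn1 (2.34), Rnaseh2a (1.49), Rnaseh2c (0.959) and Rnaseh2b (0.236), and no neighbours in this order overlapped. In MERVL-KD 2-cell libraries the order was the same, but Samhd1 overlapped Xrn2, and Xrn1 overlapped Rnaseh2a. From the 4-cell stage Xrn2 led alone, at 35.7 and 32.9 RPKM in control and MERVL-KD 4-cell and 41.1 and 37.3 RPKM in 8-cell libraries.

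Behind Xrn2 came Rnaseh1 and Rnaseh2c at the later stages. Their libraries overlapped in 3 of the 4 groups, and in control 8-cell embryos Rnaseh2c was above, at 14.7 against 10.5 RPKM. Samhd1 came next in each of these 4 groups, with 4.00 to 4.68 RPKM. Xrn1, Rnaseh2a and Rnaseh2b made up the rest, between 2.10 and 3.45 RPKM. If only the countable exon bases are taken as the length, Rnaseh2c stands above Rnaseh1 in all 4 groups, and in control 8-cell embryos Rnaseh2a stands above Rnaseh2b and Xrn1.

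The make-up of the RNase H2 transcripts changed with stage. As shares of the summed RPKM of its subunits, Rnaseh2a took 51.5% and 59.5% in 2-cell control libraries against 72.6% and 68.1% in MERVL-KD. Its share was 15.8% and 22.0% against 17.0% and 20.3% at the 4-cell stage and 15.5% and 14.9% against 15.4% and 18.1% at the 8-cell stage. Rnaseh2a was thus the leading subunit transcript in all 4 libraries of 2-cell embryos and Rnaseh2c the leading one in all 8 later libraries.

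Rnaseh2c took 37.4% and 34.0% of the sum in control and 20.8% and 25.9% in MERVL-KD 2-cell libraries, and from 60.7% to 70.9% in the later ones. Rnaseh2b took from 6.00% to 11.0% at the 2-cell stage and from 13.7% to 18.9% later. At the 2-cell stage the Rnaseh2a share averaged 55.5% ± 5.62 in control and 70.3% ± 3.18 in MERVL-KD (SD, n = 2 each), without overlap, and 2 libraries against 2 are too few for a permutation test to reach 0.05. On countable exon bases the averages were 53.6% ± 5.37 and 68.8% ± 3.48.

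**Figure D2:**
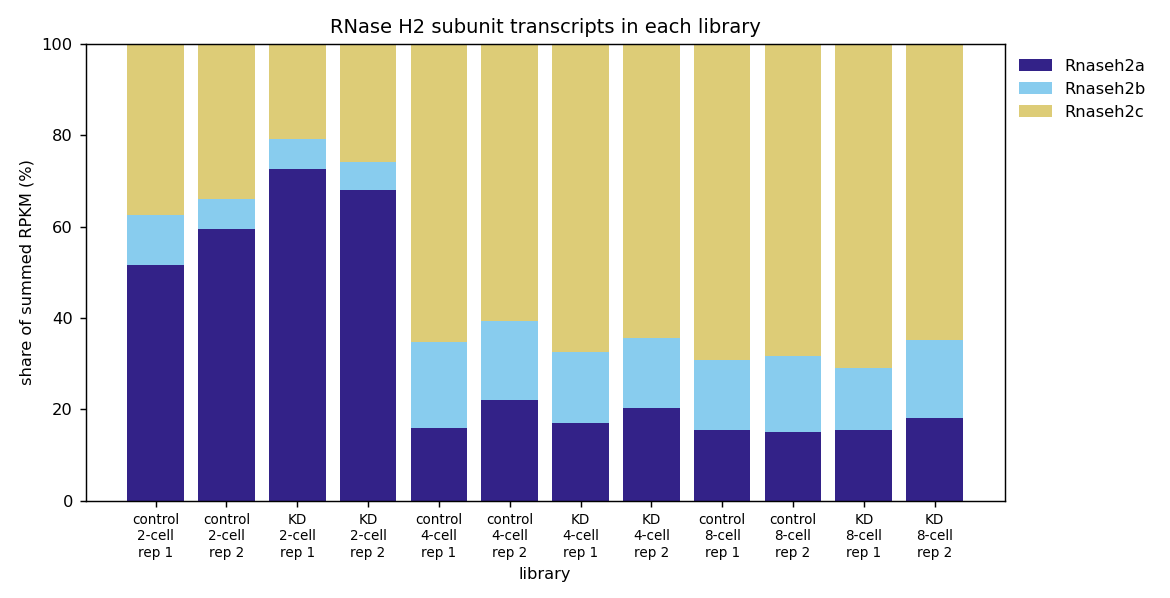
Share of each RNase H2 subunit in their summed RPKM (vertical axis, percent) in each of the 12 libraries (horizontal axis, 1 stacked bar per library). Rnaseh2a takes over 50% of each 2-cell bar and between 14.9% and 22.0% of each later bar.

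The first comparison asked whether any of the genes differed between MERVL-KD and control embryos of the same stage. At the 2-cell stage 0 of the 7 genes tested passed an adjusted p of 0.05 (edgeR's quasi-likelihood test), in a background where 14.1% of all tested genes passed. The smallest adjusted p was 0.218, for Rnaseh1, and 0 genes had an unadjusted p under 0.05, which 27.0% of all tested genes had. DESeq2 also called 0 of the 7.

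Rnaseh1 had a log2 fold change of -0.34 at the 2-cell stage (95% interval -0.71 to 0.02) and Rnaseh2a of 0.46 (-0.04 to 0.97, adjusted p = 0.229). The widest intervals belonged to the subunits with few counts, Rnaseh2b (-0.34, from -1.31 to 0.63) and Rnaseh2c (-0.52, from -1.40 to 0.36). Those of Xrn1 (-0.28 to 0.27), Xrn2 (-0.18 to 0.31) and Samhd1 (-0.17 to 0.22) were narrow. A 2-fold change thus lies outside the interval for every tested gene except, downward, Rnaseh2b and Rnaseh2c. The libraries of the arms stood apart for 4 of the 7 genes, and for 57.5% of all tested genes. The summed level of cumulus markers, mostly Amhr2, was lower in MERVL-KD than in control 2-cell libraries (17.0 to 18.5 against 19.5 to 22.6 CPM). Of 4 cumulus markers tested at this stage 0 passed. The part of this sum in the values of this stage, those of the subunit shares and the pathway genes included, was not tested.

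The call depended on the scaling. With library size alone, which moved the median of all genes at the 2-cell stage from 0.01 to 0.30, 3 genes passed. These were Rnaseh2a (0.75, adjusted p = 0.0310), Xrn2 (0.35, adjusted p = 0.0351) and Samhd1 (0.31, adjusted p = 0.0201), and only that of Rnaseh2a was far above the shifted median. How large a share of all tested genes passed with this scaling was not worked out, so the count of 3 has no background beside it.

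At the 4-cell stage 0 of 7 passed, against 10.8% of all tested genes, and 0 had an unadjusted p under 0.05, beside 25.1%. The log2 fold changes ran from -0.31 for Rnaseh1 (95% interval -0.70 to 0.09, adjusted p = 0.328) to 0.09 for Rnaseh2c (-0.33 to 0.50). Rnaseh2a was at 0.02 (-0.46 to 0.50), Rnaseh2b at -0.21 (-0.63 to 0.22) and Samhd1 at -0.12 (-0.48 to 0.24). Xrn1 (-0.18, from -0.44 to 0.09) and Xrn2 (-0.12, from -0.33 to 0.10) were the members whose arms did not overlap, 2 of 7 beside 54.4% of all tested genes. All 7 intervals lay within a 2-fold change in either direction. The summed level of the 4 sperm markers was higher in MERVL-KD than in control 4-cell libraries (0.555 to 0.824 against 0.170 to 0.278 CPM), and its part in these values was not tested.

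At the 8-cell stage 0 of 7 passed, against 5.06% of all tested genes, and DESeq2 called 0 at this stage as well. The accessory subunits of RNase H2 had an unadjusted p under 0.05, Rnaseh2b with a log2 fold change of -0.42 (95% interval -0.78 to -0.07, adjusted p = 0.171) and Rnaseh2c with -0.38 (-0.73 to -0.02, adjusted p = 0.222). Such a p was reached by 19.5% of all tested genes. Rnaseh2a had -0.23 (-0.65 to 0.20), so the RNase H2 subunits were each lower in both MERVL-KD libraries than in both controls, short of the threshold. The summed level of cumulus markers, mostly Amhr2, was likewise lower in MERVL-KD than in control 8-cell libraries (20.0 to 22.8 against 25.1 to 25.8 CPM). The part of this sum in these values was not tested.

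The other members at the 8-cell stage were Rnaseh1 at 0.14 (-0.20 to 0.47), Xrn1 at 0.08 (-0.16 to 0.33), Xrn2 at -0.13 (-0.32 to 0.06) and Samhd1 at 0.02 (-0.26 to 0.31). The arms did not overlap for 4 of the 7 genes, beside 49.5% of all tested genes. All 7 intervals again lay within a 2-fold change. The median over the 7 genes was -0.0046 in 2-cell, -0.12 in 4-cell and -0.13 in 8-cell embryos, beside 0.01, 0.03 and 0.01 over all tested genes.

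**Figure D3:**
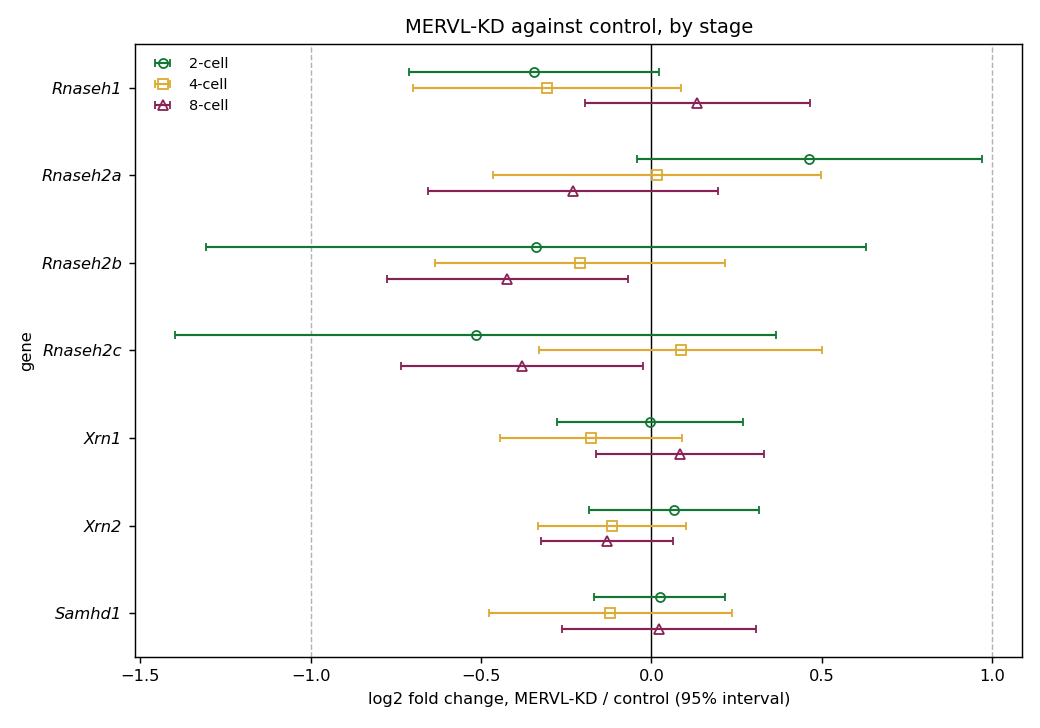
Log2 fold change of MERVL-KD against control (horizontal axis) for each counted gene (vertical axis) at the 2-cell, 4-cell and 8-cell stages, with 95% intervals from the edgeR fit of 4 libraries per stage and dashed lines at 2-fold. The only intervals that exclude 0 are those of Rnaseh2b (-0.78 to -0.07) and Rnaseh2c (-0.73 to -0.02) at the 8-cell stage, and no symbol has an adjusted p under 0.05.

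Whether the MERVL-KD effect differed between stages was tested in 1 fit of the 12 libraries. For the 4-cell minus the 2-cell stage 0 of 7 passed (4.16% of all tested genes did), for the 8-cell minus the 2-cell stage 0 (4.03%) and for the 8-cell minus the 4-cell stage 0 (0.624%). At an unadjusted p under 0.05 the counts were 1, 1 and 0, beside 17.3%, 16.7% and 11.4% of all tested genes, with Rnaseh2c at 0.68 for the 4-cell minus the 2-cell stage (95% interval 0.02 to 1.34, adjusted p = 0.274). The other was Rnaseh1 at 0.55 for the 8-cell minus the 2-cell stage (0.04 to 1.07, adjusted p = 0.261). DESeq2 called 0 in each of the 3 contrasts.

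Over the first step between stages the genes moved more than between arms. From the 2-cell to the 4-cell stage in control embryos all 7 tested genes passed, 6 higher and 1 lower, where 26.4% of all tested genes passed as higher and 28.7% as lower. Stage levels are relative to the counted RNA of a library, and in a pool of embryos a change of RNA per cell and of the share of cells that hold it cannot be told apart. At 2-fold or more, 3 rose (Rnaseh2b, Rnaseh2c and Xrn2) and 1 fell (Samhd1), beside 20.7% and 24.3% of all tested genes.

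The accessory subunits of RNase H2 rose most, Rnaseh2b by 3.37 on the log2 scale (95% interval 2.83 to 3.92, adjusted p = 3.68e-10) and Rnaseh2c by 3.15 (2.68 to 3.61, adjusted p = 9.11e-11). Xrn2 rose by 1.77 (1.55 to 2.00, adjusted p = 5.25e-12) and Rnaseh1 by 0.86 (0.50 to 1.23, adjusted p = 2.70e-04). Rnaseh2a, the catalytic subunit, rose by 0.75 (0.27 to 1.23, adjusted p = 0.00937) and Xrn1 by 0.52 (0.26 to 0.79, adjusted p = 0.00155).

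Samhd1 fell by 1.26 (-1.54 to -0.97, adjusted p = 8.00e-08). The libraries of the 2 stages did not overlap for any of the 7 genes, which also held for 79.3% of all tested genes. The call of Rnaseh2a was lost without the control 2-cell replicate 1 (0.62, adjusted p = 0.102) or without the control 4-cell replicate 2 (0.60, adjusted p = 0.102).

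In MERVL-KD embryos over the same step, 5 of the 7 genes rose and 1 fell, where 27.1% and 27.3% of all tested genes did. Rnaseh2c rose by 3.82 (adjusted p = 7.06e-12), Rnaseh2b by 3.57 (adjusted p = 1.96e-10), Xrn2 by 1.67 (adjusted p = 1.29e-11), Rnaseh1 by 0.98 (adjusted p = 7.64e-05) and Xrn1 by 0.43 (adjusted p = 0.00742). Samhd1 fell by 1.32 (adjusted p = 3.76e-08), and Rnaseh2a was at 0.38 (95% interval -0.09 to 0.86, adjusted p = 0.166).

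The difference between the arms for Rnaseh2a over this step was -0.37 (95% interval -1.04 to 0.31, adjusted p = 0.632). Without the MERVL-KD 2-cell replicate 2 the call of Xrn1 was lost (0.33, adjusted p = 0.1000), and also without the MERVL-KD 4-cell replicate 2 (0.38, adjusted p = 0.0554). It was lost as well with library size alone (0.29, adjusted p = 0.0724) and with only genes of 10 or more counts in every library (0.28, adjusted p = 0.0633). At 2-fold or more, 3 rose and 1 fell, the genes named for control embryos, beside 21.2% and 23.0% of all tested genes.

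From the 4-cell to the 8-cell stage, both labelled 2.5 dpc, little moved. Over this step a change with time cannot be told apart from a difference between slower and faster embryos of the same day. In control embryos 1 of 7 rose and 0 fell, where 5.87% of all tested genes passed, 3.19% higher and 2.68% lower. This was Rnaseh2c, by 0.79 (95% interval 0.39 to 1.19, adjusted p = 0.0174). Its call was lost without the control 4-cell replicate 2 (0.64, adjusted p = 0.193), without the control 8-cell replicate 1 (0.74, adjusted p = 0.128) and without the control 8-cell replicate 2 (0.85, adjusted p = 0.0650). Rnaseh2b was next, at 0.49 (0.02 to 0.95, adjusted p = 0.226), with an unadjusted p under 0.05 as in 19.3% of all tested genes.

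In MERVL-KD embryos 0 of 7 passed over this step, beside 4.68% of all tested genes, with 1 at an unadjusted p under 0.05, beside 18.2%. That was Rnaseh1 at 0.52 (95% interval 0.16 to 0.88, adjusted p = 0.0952), which DESeq2 called (0.54, adjusted p = 0.0331). Rnaseh2c was at 0.32 (-0.08 to 0.72, adjusted p = 0.410). The remaining genes ran from -0.22 for Samhd1 to 0.37 for Rnaseh2a in control and from -0.08 for Samhd1 to 0.27 for Rnaseh2b in MERVL-KD embryos, and did not pass.

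**Figure D4:**
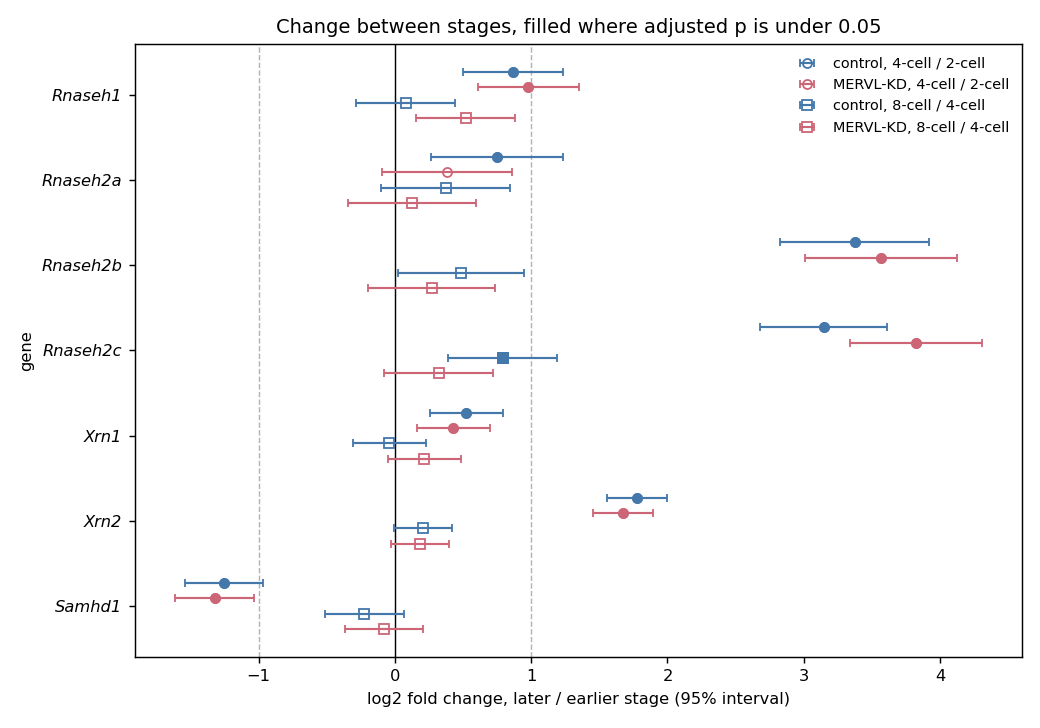
Log2 fold change from 1 stage to the next (horizontal axis) for each counted gene (vertical axis), in control (blue) and MERVL-KD (red) embryos, circles for 4-cell against 2-cell and squares for 8-cell against 4-cell, with 95% intervals from 1 edgeR fit of 12 libraries. Filled symbols have an adjusted p under 0.05, which holds for 13 of the 14 circles and 1 of the 14 squares.

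Between the lowest and the highest group mean, Rnaseh2c spanned 23.2-fold in CPM and Rnaseh2b 19.5-fold, followed by Xrn2 (3.99-fold), Rnaseh1 (2.83-fold), Samhd1 (2.79-fold), Rnaseh2a (2.18-fold) and Xrn1 (1.56-fold). Likeness of course over the 12 libraries was measured as the root mean square difference of log2 CPM after centring each gene on its mean. Rnaseh2b and Rnaseh2c were the closest pair among the 7, at 0.222, while Rnaseh2a stood at 1.42 from Rnaseh2b and 1.46 from Rnaseh2c. Rnaseh2a was closest to Xrn1 (0.241), the steadiest member, and Samhd1 was farthest from Rnaseh2c (2.42).

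Among all 24039 other genes in the fit, the nearest to Rnaseh2c were Rps18 (0.141) and Rpl27 (0.196), which encode ribosomal proteins, and then Rnaseh2b. Ribosomal protein genes have near-identical pseudogenes, and unique alignment can drop their reads, so their levels are uncertain. The nearest to Rnaseh2b were Pdcd6 (0.153), Gm24494 (0.159) and Rpl14-ps1 (0.179), and those to Rnaseh2a were Chaf1b (0.116), a chromatin assembly subunit, Igf2bp1 (0.119) and Asb6 (0.124). Rnaseh1 was nearest to Tmem209 (0.115), the exosome subunit Exosc5 (0.119) and the helicase Ddx31 (0.120). Xrn2 was nearest to the proteasome receptor Adrm1 (0.0776), D8Ertd738e (0.0786) and Tmem41b-ps (0.0828). Xrn1 was nearest to Mfsd11 (0.101), the nonsense-mediated decay kinase Smg1 (0.106) and the splicing factor Srrm1 (0.111), and Samhd1 to Rdx (0.117), Disc1 (0.122) and Cntln (0.124).

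Genes that act beside the members were taken from 8 lists of 96 genes in all. Between MERVL-KD and control, 6.70% of all tested genes rose and 7.39% fell in 2-cell embryos, 4.92% and 5.84% in 4-cell embryos, and 1.50% and 3.56% in 8-cell embryos. Xrn1 digests mRNA after decapping, and of 16 tested decapping genes (Dcp2, Edc4, the Lsm ring and others) 0 passed at any stage between MERVL-KD and control, with medians of 0.03, -0.07 and -0.12. Over the step from the 2-cell to the 4-cell stage in control embryos 9 of 17 rose and 4 fell, where 26.4% and 28.7% of all tested genes did. Xrn2 works beside the cleavage factors of the 3′ end and regulators such as Nkrf and Cdkn2aip, and of 13 genes on this list 3 fell and 1 rose in MERVL-KD 2-cell embryos. Clp1 fell by 0.70 (adjusted p = 2.02e-04), Nkrf by 0.64 (adjusted p = 0.00434) and Cstf1 by 0.49 (adjusted p = 0.00482), while Pcf11 rose by 0.42 (adjusted p = 0.00998).

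At the 4-cell stage 1 of these 13 rose, Cdkn2aip, a regulator of Xrn2, by 0.56 (adjusted p = 0.0210), and 1 fell, Cpsf3, the endonuclease that cuts the transcript, by 0.37 (adjusted p = 0.0384). At the 8-cell stage 0 passed. Of 17 tested genes of the exosome, which degrades RNA from the other end, 2 fell in 2-cell, 4 in 4-cell and 2 in 8-cell embryos, and 0 rose. Dis3l, the catalytic subunit of the cytoplasmic exosome, was among them at each stage, with falls of 0.53 (adjusted p = 0.00206), 1.01 (adjusted p = 0.00471) and 0.80 (adjusted p = 0.0306).

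Mtrex, the helicase of the nuclear exosome, fell by 0.64 at the 4-cell stage (adjusted p = 8.71e-04). Ttc37 fell by 0.56 at the 4-cell stage (adjusted p = 0.0212), Zcchc8 by 0.44 at the 2-cell stage (adjusted p = 0.0118), and Exosc10 by 0.35 (adjusted p = 0.0426) and 0.43 (adjusted p = 0.0312) at the 4-cell and 8-cell stages. Dis3l had 5042 and 6663 counts in control 2-cell libraries against 5083 and 3699 in MERVL-KD, 1009 and 776 against 577 and 399 at the 4-cell stage, and 474 and 663 against 377 and 454 at the 8-cell stage. Scramble-ASO has a site with 4 mismatches in an exon of Dis3l (chr9:64340447-64340466, minus strand), and its part in these values was not tested.

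Of 7 genes that process RNA:DNA hybrids and ribonucleotides in DNA, 2 fell at the 2-cell stage, the DNA ligase Lig1 by 1.15 (adjusted p = 5.20e-04) and the topoisomerase Top1 by 0.35 (adjusted p = 0.00948). MERVL-ASO2 has a site with 4 mismatches in an intron of Top1, and the part of this site in the Top1 value was not tested. The exonuclease Exo1 fell by 0.75 at the 4-cell stage (adjusted p = 0.00200), and 0 passed at the 8-cell stage. Among nucleotide supply genes, the thymidine kinase Tk1 rose by 1.09 at the 2-cell stage (adjusted p = 9.43e-04) and Dctd fell by 0.35 there (adjusted p = 0.0462). On the same list Rrm2b rose by 0.37 at the 4-cell stage (adjusted p = 0.0416) and Dut fell by 0.70 at the 8-cell stage (adjusted p = 0.0115). The other genes of these lists did not pass at those stages.

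Other DNA-degrading and DNA-sensing genes held the sharpest rises. Of 13 genes tested at the 2-cell stage beside Dnase1l2, 3 rose and 0 fell. Dnase1l2 itself had 2 and 2 counts in control and 109 and 66 in MERVL-KD 2-cell libraries. This is a ratio of 38.5 with a 95% counting interval of 10.3 to 323 on read pairs. Its control counts lie under the floor of 3 and it entered this test only through the MERVL-KD libraries, so it is given by its counts. Exog, a mitochondrial exonuclease, had 116 and 151 counts against 388 and 384, a rise of 1.44 on the log2 scale (adjusted p = 3.44e-04), and Dnase1 rose by 0.99 (adjusted p = 0.0181).

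Sting1, the adaptor that signals when cytoplasmic DNA has been sensed, had 12 and 18 counts in control and 131 and 59 in MERVL-KD 2-cell libraries, a rise of 2.52 (95% interval 1.50 to 3.54, adjusted p = 0.00204). At the 4-cell stage it had 12 and 15 counts against 220 and 238, a rise of 3.92 (3.07 to 4.78, adjusted p = 8.18e-05), and was the only gene of 13 tested on this list to pass. At the 8-cell stage it had 5 and 10 counts against 6 and 9, too few to enter the test, and 0 of 12 tested genes passed.

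Of 12 proteins known to bind phosphorothioate oligonucleotides, 3 fell in 2-cell, 1 in 4-cell and 2 in 8-cell embryos, and 0 rose. The paraspeckle protein Pspc1 was among them at each stage, with falls of 1.04 (adjusted p = 1.67e-04), 1.23 (adjusted p = 2.66e-04) and 1.06 (adjusted p = 1.62e-04). It had 1258 and 1658 counts in control 2-cell libraries against 927 and 610 in MERVL-KD, 2339 and 1721 against 1082 and 817 at the 4-cell stage, and 2172 and 2260 against 1263 and 1449 at the 8-cell stage. Its partners Sfpq (fell by 0.37, adjusted p = 0.00822) and Nono (fell by 0.32, adjusted p = 0.0437) passed at the 2-cell stage, and the chaperone Hsp90aa1 fell by 0.39 at the 8-cell stage (adjusted p = 0.00763). Of the other Aicardi-Goutieres genes, Adar, which edits double-stranded RNA, fell by 0.62 at the 4-cell stage (adjusted p = 0.0232), while Lsm11 (0.46, adjusted p = 0.375) and Ifih1 (-0.37, adjusted p = 0.787) did not pass there.

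Of 17 pathway genes that passed at the 2-cell stage, Dnase1l2 counted among them, 11 still passed without any 1 library. Dnase1l2 is 1 of these 11 and 1 of the 33 calls below. It entered the 2-cell test only through the MERVL-KD libraries, so its call does not count as one that held. Dnase1, Nono and Dctd lost their call without control replicate 1, Top1, Nono and Dctd without control replicate 2, Pcf11 and Dctd without MERVL-KD replicate 1, and Zcchc8, Dnase1, Nono and Dctd without MERVL-KD replicate 2, with adjusted p from 0.0524 to 0.236. At the 4-cell stage 5 of 11 held (Sting1, Pspc1, Mtrex, Exo1 and Dis3l), while Cdkn2aip, Ttc37, Adar, Cpsf3, Rrm2b and Exosc10 were each lost without either control replicate, Rrm2b also without MERVL-KD replicate 1, and Adar and Cpsf3 also without MERVL-KD replicate 2 (adjusted p from 0.0516 to 0.400). At the 8-cell stage 1 of 5 held, Pspc1, while Hsp90aa1, Dut and Exosc10 were lost without control replicate 1 and Dis3l without control replicate 2 (adjusted p from 0.0585 to 0.274). With library size alone in place of TMM 13 of these 33 calls were lost, 8 of them at the 2-cell stage, and with the replicate number as a block 5 were lost (Nono and Dctd at the 2-cell, Cpsf3, Rrm2b and Exosc10 at the 4-cell stage). Of the genes named here, Dnase1, Cdkn2aip and Adar share 18.1%, 17.0% and 16.8% of their exon bases with a gene on the opposite strand.

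**Figure D5:**
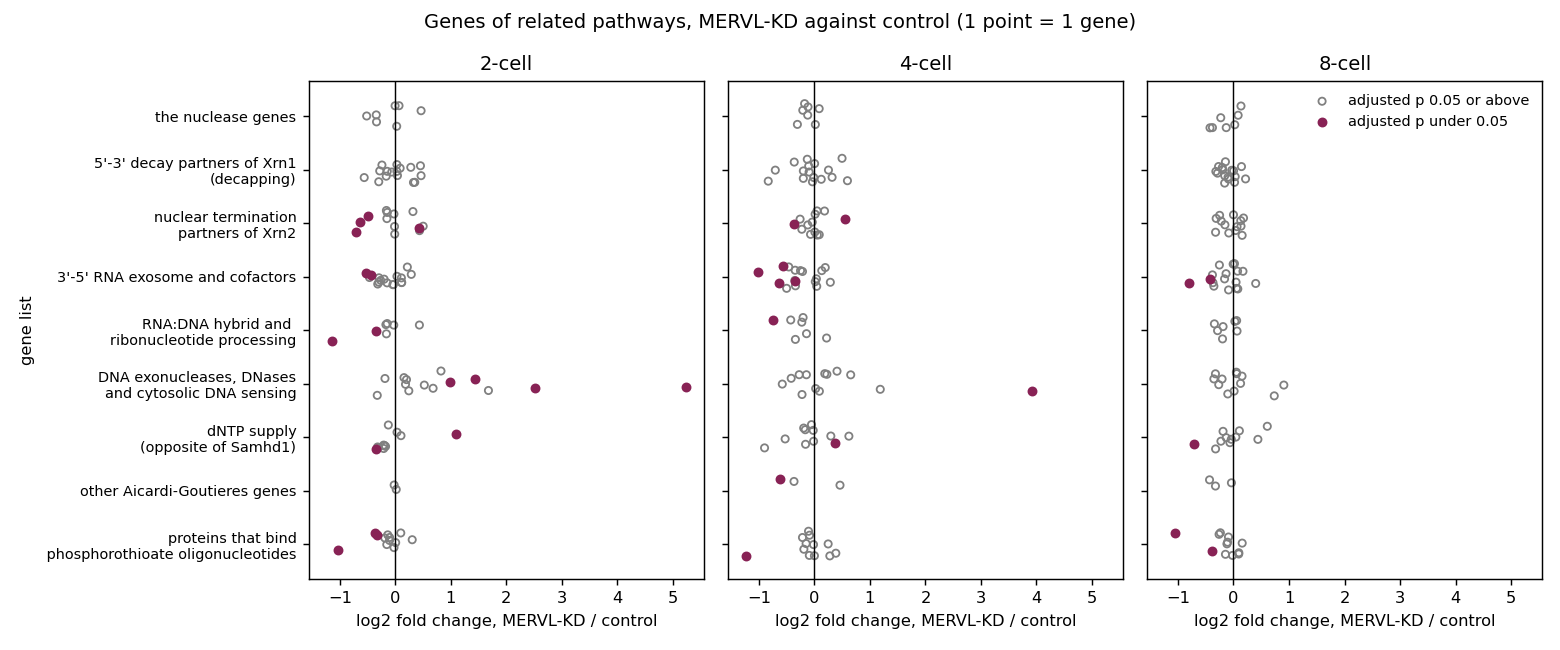
Log2 fold change of MERVL-KD against control (horizontal axis) of every tested gene in the 8 lists and of the nuclease genes themselves (top row), at the 2-cell, 4-cell and 8-cell stages, with points spread vertically only for visibility. Filled points have an adjusted p under 0.05, and the top row holds none. The filled 2-cell point of Dnase1l2 rests on 2 counts in each control library.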

How the data were processed

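RNA was measured in 12 libraries (2 biological replicates of each of 6 groups), grouped by the sample labels. The deposited values are raw counts. The authors aligned total RNA-seq reads uniquely with STAR 2.5.3a to GRCm38. They counted reads with featureCounts on genes of GENCODE mouse release 25 and on RepeatMasker families, 56326 features in all. Low counts were mostly even (71.8% to 74.7% of genes with 1 to 50 counts), as when both reads of a pair are counted. Exons were taken as the count files annotate them, and gene identifiers were matched to GENCODE mouse release 21. Another 12 samples (ATAC-seq) were not analysed here.

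Counts were tested with edgeR 4.0.16 in R 4.3.3: genes were kept by filterByExpr, scaled by TMM and fitted by robust quasi-likelihood, with Benjamini-Hochberg adjustment over all tested genes and repeat families. MERVL-KD was compared with control in fits of the 4 libraries of a stage, and stages and differences between stages in 1 fit of 12. "Rose" and "fell" mean an adjusted p under 0.05, and intervals are 95%. CPM was scaled over the 12 libraries, and RPKM is CPM per kilobase of exon.

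The genes and pathway lists were chosen with earlier results of these data known. All 8 genes were named, and from the lists, at each stage, the genes past the threshold with a 2-fold change and up to 12 more with the smallest adjusted p, the 3 genes nearest each member in course, MERVL-int, and genes whose exons overlap a member's. Marker lists are named only as checks. ASO sequences came from the study's supplementary table and were searched on the sense strand of each gene. Scripts were tested on simulated data.

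The alternatives were DESeq2 1.42.0, its size factors, library size, other filters on low counts, halved counts, a non-robust fit, repeat families or very abundant genes left out, other sets of libraries in a fit, a replicate block, a 2-fold threshold and each library left out. Levels on countable exon bases were added after seeing the data. Totals of 28167085 to 41482526 counts carry no molecular identifiers, so the counting interval covers counting error only. Replicates of a group differed by more than sampling noise (chi-square per degree of freedom 9.29 to 15.7). The p-values rest on 2 libraries per group.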

Additional observations from a re-analysis of the deposited data

Results flagged for a closer look

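The effect of MERVL-KD differed between stages for some pathway genes, by a test of the difference itself in the edgeR fit of 12 libraries, and for 0 of the 7 tested nuclease genes. It passed for 8, 5 and 1 of 93 tested list genes in the contrasts below, where 4.16%, 4.03% and 0.624% of all tested genes passed. For the 4-cell minus the 2-cell stage the difference on the log2 scale was -1.27 for Exog (adjusted p = 0.0232), -1.17 for Tk1 (adjusted p = 0.00112) and -0.64 for Exo1 (adjusted p = 0.0295). It was 0.90 for Nkrf (adjusted p = 0.0226), 0.79 for Clp1 (adjusted p = 0.0133), 0.62 for Cstf1 (adjusted p = 0.0418) and 0.58 for the ribonucleotide reductase subunit Rrm1 (adjusted p = 0.0252), which was named after its value was seen. For the 8-cell minus the 2-cell stage it was -1.46 for Exog (adjusted p = 0.00808), -1.05 for Tk1 (adjusted p = 0.00271), 0.88 for Lig1 (adjusted p = 0.0411) and 0.48 for Top1 (adjusted p = 0.0436). For the 8-cell minus the 4-cell stage it was -4.27 for Sting1 (adjusted p = 0.0180), from 5 to 10 counts in each 8-cell library, too few to be tested within that stage. Dnase1l2 also passed, with fitted differences of -3.97 for the 4-cell and -4.25 for the 8-cell minus the 2-cell stage, but with 2 counts in each control 2-cell library these values depend on the prior count and are no measure of size.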

How the results depend on the processing

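Between MERVL-KD and control, and for the differences between stages, 0 of the 7 nuclease genes passed under every alternative run except library size at the 2-cell stage, where 3 passed. Over stage steps, library size left 0 for control 8-cell against 4-cell, DESeq2 called 1 (Rnaseh1) for MERVL-KD 8-cell against 4-cell, library size and a minimum of 10 counts in each library left 5 (without Xrn1) for MERVL-KD 4-cell against 2-cell, and a 2-fold threshold left 4 for control 4-cell against 2-cell and 0 for control 8-cell against 4-cell. With 1 library left out, the counts ran from 6 to 7 for control 4-cell against 2-cell, from 5 to 6 for MERVL-KD 4-cell against 2-cell and from 0 to 1 for control 8-cell against 4-cell, and stayed at 0 otherwise. Library size moved the median of all genes to 0.30, 0.09 and 0.13 for MERVL-KD against control. The share of all tested genes that passed with library size was not worked out.

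With the replicate number as a block, the counts were 0, 0 and 0 between arms and 7, 1, 6 and 0 over the stage steps, and 5 of the 33 pathway calls were lost, with adjusted p from 0.0563 to 0.0875. Same-numbered libraries of different groups correlated at -0.0155 to 0.0203 in their deviations, over 15 pairs of groups. These correlations weigh all genes and repeat families of the fit alike, so they cannot exclude that same-numbered libraries shared a day of work. Of these 33 calls, a non-robust fit lost 3 (Nono at the 2-cell, Rrm2b and Exosc10 at the 4-cell stage), 1 fit of 12 libraries 3 (Pcf11, Dnase1 and Rrm2b) and a minimum of 10 counts in each library 1 (Dctd).

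Some uncalled log2 fold changes changed sign, and the cause was not tested. For control 8-cell against 4-cell, Xrn1 was at 0.0029 with DESeq2's size factors and 0.0027 with DESeq2, and with library size Rnaseh1 was at -0.13 and Xrn2 at -0.0021. For MERVL-KD against control at the 2-cell stage, Xrn1 was at 0.28 with library size, 0.014 under a minimum of 10 counts in each library and 0.0025 with halved counts, and in 1 fit of 12 libraries Xrn2 was at -0.018 and Samhd1 at -0.059. With library size Rnaseh1 was at -0.18 for the 4-cell minus the 2-cell effect, Rnaseh2c at -0.019 for the 8-cell minus the 2-cell effect and Rnaseh2a at -0.012 for MERVL-KD 8-cell against 4-cell. With 1 library left out, MERVL-KD against control ran from -0.69 to 0.077 for Rnaseh2b, -0.15 to 0.10 for Xrn1 and -0.011 to 0.12 for Xrn2 at the 2-cell stage, from -0.11 to 0.15 for Rnaseh2a, -0.071 to 0.25 for Rnaseh2c and -0.32 to 0.098 for Samhd1 at the 4-cell stage, and from -0.012 to 0.26 for Rnaseh1, -0.0018 to 0.18 for Xrn1 and -0.055 to 0.093 for Samhd1 at the 8-cell stage. The 4-cell minus the 2-cell effect of Rnaseh1 ran from -0.062 to 0.32, control 8-cell against 4-cell from -0.099 to 0.28 for Rnaseh1, -0.15 to 0.077 for Xrn1 and -0.42 to 0.0068 for Samhd1, and MERVL-KD 8-cell against 4-cell of Samhd1 from -0.22 to 0.10. Counts of 32 to 58 limit Rnaseh2b and Rnaseh2c at the 2-cell stage.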
